A study of Mus musculus with 12 samples.

Results

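A set of 9 genes of alcohol, retinol and retinal metabolism were followed in cultured mouse hepatocytes, the parenchymal cells of the liver, after knockdown of Hnf4a, of Cebpa or of both. They were Adh1, Adh4, Adh5, Adh7, Aldh1a1, Aldh1a7, Cyp26a1, Rbp4 and Rdh10, 9 of 55385 genes listed, and all 9 were among the 15090 genes with enough counts to test. Of these, 8 were taken for their function, and Adh7 was taken because it rose steeply in these data. Its differences against siCon are therefore given as a description, with no test. The cells came from 3 mice, and every mouse gave 1 library to each of 4 groups. The siHnf4a group received a small interfering RNA (siRNA) against Hnf4a, the siCebpa group 1 against Cebpa, the double knockdown both, and the siCon group a control siRNA. Both targets are transcription factors of the liver, HNF4α of the nuclear receptor family and C/EBPα of the leucine zipper family. All groups shared Williams' E medium with 10% serum, 2 mM glutamine, 100 nM dexamethasone and 5% of an insulin, transferrin and selenium supplement, and total RNA was taken at 48 h. The sources used here do not give strain, age, sex or siRNA sequences.

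Alcohol dehydrogenases (ADH) and retinol dehydrogenases oxidise retinol, the transport form of vitamin A, to retinal. Retinal dehydrogenases of the ALDH1A family oxidise retinal to retinoic acid, the ligand of the nuclear receptors RARα, RARβ and RARγ, and CYP26 enzymes hydroxylate retinoic acid and so start its removal. Hepatocytes are the main source of RBP4, which carries retinol in plasma, and of ADH1, which also clears most ingested ethanol, while most of the body's vitamin A is stored in the neighbouring stellate cells.

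The mouse Adh genes lie in 1 cluster on chromosome 3, all on the plus strand. In the GRCm38 build with GENCODE M21 annotation, Adh7 lies at chr3:138217760-138233382, 27608 bp before Adh1 at chr3:138260991-138290698. Adh4 lies at chr3:138415466-138430892 and Adh5 at chr3:138443093-138455499, with 12200 bp between them. Aldh1a1 at chr19:20492715-20643465 (plus strand) and Aldh1a7 at chr19:20692953-20727562 (minus strand) are separated by 49487 bp. Cyp26a1 lies at chr19:37697798-37701536 (plus strand), Rbp4 at chr19:38116629-38125281 (minus strand) and Rdh10 at chr1:16105774-16133734 (plus strand).

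Promoter sequences from RefSeq (build GRCm38.p6) were matched for 8 of the 9 genes, with 11 start sites. The 250 bases before each start were searched on both strands for 5 motifs. These were TTGCNNAA (C/EBP element, in 9.56% of 32851 promoters of the same length), TGANTCA (AP-1 element, 6.75%), CAAAGTCCA (HNF4 element, 0.384%), TGACNNNGC (antioxidant response core, 10.2%) and GNTCANNNNNNGNTCA (direct repeat of a retinoic acid response element, 0.776%). The 4 windows with a match are shown, with the matches in capitals. The Adh7 window (chr3:138217523-138217772, plus strand) holds an AP-1 match 25 to 19 bases before the start and a C/EBP match 16 to 9 bases before it. The Rbp4 window (chr19:38124812-38125061, minus strand) belongs to the downstream of 2 listed starts and holds an AP-1 and a C/EBP match. The Aldh1a1 window (chr19:20492333-20492582, plus strand) belongs to the upstream of 2 listed starts and holds an AP-1 match 57 to 51 bases before the start and, read on the other strand, a C/EBP match 13 to 6 bases before it. The Cyp26a1 window (chr19:37697558-37697807, plus strand) holds the direct repeat, read on the other strand, 32 to 17 bases before the start.
Adh7: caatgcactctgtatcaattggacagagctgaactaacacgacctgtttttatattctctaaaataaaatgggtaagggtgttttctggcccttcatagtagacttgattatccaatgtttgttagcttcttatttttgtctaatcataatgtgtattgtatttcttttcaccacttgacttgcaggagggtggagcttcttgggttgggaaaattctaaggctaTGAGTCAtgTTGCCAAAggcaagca
Rbp4: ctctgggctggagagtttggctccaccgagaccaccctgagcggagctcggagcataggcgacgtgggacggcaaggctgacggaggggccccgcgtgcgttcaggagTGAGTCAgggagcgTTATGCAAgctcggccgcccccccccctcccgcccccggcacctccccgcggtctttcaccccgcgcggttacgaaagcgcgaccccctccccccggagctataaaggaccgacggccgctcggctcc
Aldh1a1 (upstream start): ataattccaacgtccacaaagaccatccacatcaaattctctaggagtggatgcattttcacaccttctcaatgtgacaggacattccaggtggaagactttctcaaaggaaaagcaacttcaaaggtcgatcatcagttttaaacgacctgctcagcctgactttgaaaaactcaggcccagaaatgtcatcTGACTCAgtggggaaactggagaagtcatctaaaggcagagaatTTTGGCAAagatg
Cyp26a1: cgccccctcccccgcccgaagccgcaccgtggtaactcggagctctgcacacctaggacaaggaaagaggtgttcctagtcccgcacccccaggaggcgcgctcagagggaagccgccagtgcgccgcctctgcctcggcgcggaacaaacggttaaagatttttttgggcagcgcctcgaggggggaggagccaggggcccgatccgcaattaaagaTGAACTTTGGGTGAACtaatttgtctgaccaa
None of the 4 windows of Adh1, Adh4 and Adh5 held any of the 5 motifs, and neither did that of Aldh1a7. The only Adh1 window (chr3:138277335-138277584, plus strand) lies inside the annotated gene, so the bases before the annotated Adh1 start were not searched. An Adh5 window (chr3:138436950-138437199, plus strand) lies between Adh4 and Adh5, apart from the annotated Adh5 start. The 110 bases before the start of Aldh1a7 (chr19:20727557-20727666, minus strand) and of a downstream start of Aldh1a1 (chr19:20601858-20601967, plus strand) are shown because these close relatives went different ways between mice. They are 94.5% identical (104 of 110 bases), with identical bases in capitals.
Aldh1a7: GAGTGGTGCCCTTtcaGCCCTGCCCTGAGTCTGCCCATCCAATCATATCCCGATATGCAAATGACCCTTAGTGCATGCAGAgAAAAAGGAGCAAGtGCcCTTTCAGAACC
Aldh1a1 (downstream start): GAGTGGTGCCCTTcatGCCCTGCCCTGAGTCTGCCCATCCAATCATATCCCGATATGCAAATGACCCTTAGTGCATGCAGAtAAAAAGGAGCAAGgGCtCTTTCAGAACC

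In siCon libraries levels were compared between genes as TPM (a share of all transcripts that is corrected for transcript length). Aldh1a1 had 439, 1095 and 1298 TPM in mice 1, 2 and 3, and Rbp4 had 604 to 630 TPM, so the order of these neighbours depended on the mouse. Adh1 followed with 171 to 203 TPM. Adh5 with 88.1 to 110 TPM and Aldh1a7 with 75.7 to 112 TPM overlapped. Cyp26a1 had 15.3 to 48.8 TPM, Adh4 10.3 to 13.2 TPM, Rdh10 3.95 to 7.88 TPM and Adh7 0.737 to 1.53 TPM, none of these 4 overlapping with its neighbour. Adh7 stood last of the 9 by mean TPM in siCebpa and siCon libraries, at rank 7 in siHnf4a libraries and at rank 6 in the double knockdown.

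Library totals were 22453445 to 25008195 estimated counts. Hnf4a stood at 23.6% of its siCon level in siHnf4a cells (log2 fold change -2.09 ± 0.28 SE, edgeR adjusted p = 0.000953) and at 15.7% in the double knockdown. Cebpa stood at 15.6% of siCon in siCebpa cells but at 48.9% in the double knockdown, which was 1.65 log2 units above siCebpa (adjusted p = 5.11e-05). The 10 hepatocyte marker genes were all detected, with sums of 7747 to 14203 CPM (counts scaled to library size, the unit for comparing 1 gene between libraries) in siHnf4a, 8345 to 17273 CPM in siCebpa, 5890 to 9765 CPM in the double knockdown and 8922 to 12835 CPM in siCon libraries. The 13 stellate cell and fibroblast markers summed to 98.6 to 141 CPM in siHnf4a, 88.7 to 169 CPM in siCebpa, 88.5 to 148 CPM in the double knockdown and 152 to 179 CPM in siCon libraries. The 13 macrophage markers summed to 96.4 to 423 CPM in siHnf4a, 59.8 to 371 CPM in siCebpa, 93.3 to 355 CPM in the double knockdown and 83.8 to 263 CPM in siCon libraries. Most of this was Cd68, which averaged 207, 158 and 179 CPM in the knockdowns in the same order and 133 CPM in siCon. Every other macrophage marker had its highest mean in siCon, with Lyz2 at 4.33 CPM there and at 2.15, 1.84 and 2.00 CPM in the knockdowns. The Kupffer cell genes Clec4f and Timd4 averaged under 1 CPM in every group. Endothelial markers summed to 63.7 to 121 CPM, cholangiocyte markers to 32.2 to 269 CPM (Tff2 at 0 throughout) and lymphocyte markers to 0.386 to 1.28 CPM. The part of these cells in the results below was not tested, and fewer cells of a type cannot be told apart from less RNA per cell in such samples.

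**Figure D1:**
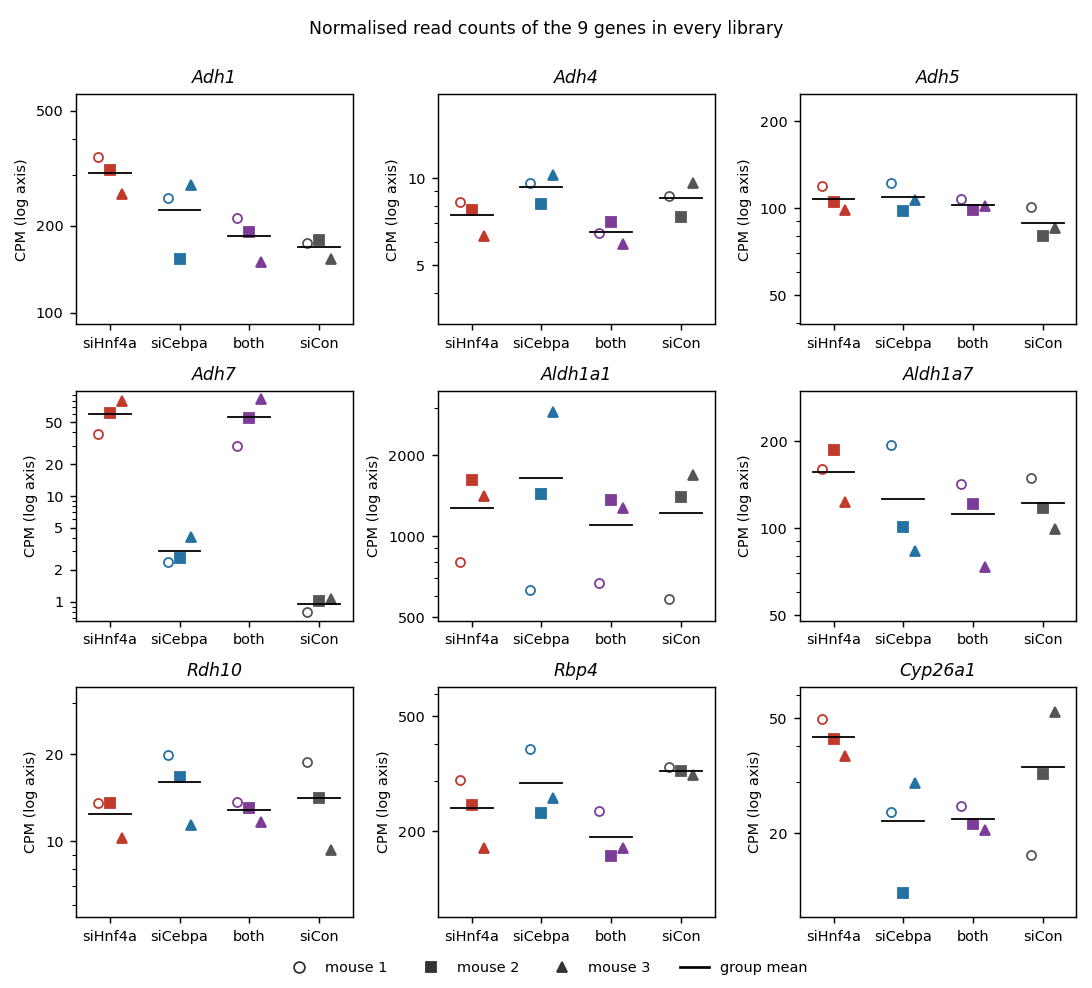
Normalised read counts (CPM, log axis) of the 9 genes in each library, by siRNA group (both: double knockdown), with the mouse as the symbol and the group mean as a line. Adh7 was at 38.8 to 78.4 CPM in siHnf4a and 29.7 to 82.7 CPM in double knockdown libraries against 0.794 to 1.06 CPM in siCon, while Aldh1a1 was lowest in mouse 1 in all 4 groups.

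Adh7 encodes the class IV alcohol dehydrogenase, an efficient retinol dehydrogenase best known from the lining of the stomach and upper digestive tract. Its level was 38.8, 60.7 and 78.4 CPM in siHnf4a libraries of mice 1, 2 and 3, 2.38, 2.57 and 4.12 CPM in siCebpa, 29.7, 54.9 and 82.7 CPM in the double knockdown, and 0.794, 1.01 and 1.06 CPM in siCon. In CPM every siHnf4a and double knockdown library was above every siCebpa library, every siCebpa library was above every siCon library, and within each of the 4 groups mouse 1 was lowest and mouse 3 highest. In TPM Adh7 was at 21.5, 35.1 and 41.7 in siHnf4a libraries, 1.21, 1.07 and 2.74 in siCebpa, 16.7, 27.4 and 46.4 in the double knockdown, and 0.737, 1.53 and 0.977 in siCon. On that scale the siCebpa and siCon libraries overlapped, and mouse 2 was lower in siCebpa than in siCon. The siCon values rest on 20, 25 and 25 counts per library, the siHnf4a values on 976 to 1908 counts.

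The log2 fold change of Adh7 over siCon was 5.95 ± 0.46 (SE) in siHnf4a cells, a 61.9-fold difference, and 5.86 ± 0.46 in the double knockdown, a 58.2-fold difference. It had rank 6 of 15090 genes by log2 fold change in each of these comparisons. Adh7 was taken for its steep rise in these data, so its ranks are only a description. In siCebpa cells the log2 fold change was 1.66 ± 0.46, or 3.16-fold, at rank 55. These 3 values share the siCon libraries. They were smaller on a log2 TPM scale, where pseudocounts of 1 and 0.1 gave 3.99 and 4.80 in siHnf4a, 0.32 and 0.52 in siCebpa and 3.81 and 4.61 in double knockdown cells. The difference between the double knockdown and siHnf4a was -0.09 ± 0.34 on the log2 scale, and -0.49 to 0.21 over the alternatives. The interaction, the change in the double knockdown less the summed changes of the single ones, was -1.75 ± 0.57 log2 units, and -2.13 to -0.50 over the alternatives, and is given with no test as well. Cebpa stood at 15.6% of siCon in siCebpa cells but at 48.9% in the double knockdown, and the part of this in the interaction was not tested. With the mouse as a block, which compares libraries of 1 animal, the values over siCon were 5.94 ± 0.18 for siHnf4a, 1.65 ± 0.22 for siCebpa and 5.80 ± 0.18 for the double knockdown.

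The coding sequence of Adh7 is 69.9% identical to Adh1, 68.4% to Adh5 and 66.0% to Adh4, and 97.8% of the 31-base words in its transcripts occur in no other gene. The remaining 81 words are shared with 0610031O16Rik, an antisense gene over Adh7, and the sources used here do not say whether counting used the strand. That gene had 7.6 to 15.7 counts per library in siHnf4a, 5.3 to 12 in siCebpa, 5.56 to 14 in double knockdown and 8.37 to 14.2 in siCon libraries. Its counts in these groups overlapped.

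Adh1 encodes the class I enzyme, the main ethanol-oxidising dehydrogenase of the liver, which also acts on retinol. It had 347, 311 and 258 CPM in siHnf4a, 250, 154 and 278 CPM in siCebpa, 214, 190 and 150 CPM in the double knockdown, and 174, 179 and 154 CPM in siCon libraries of mice 1, 2 and 3. The siHnf4a libraries lay above all siCon and all double knockdown libraries, while those of siCebpa and of the double knockdown overlapped siCon. Adh1 rose in siHnf4a cells, by a log2 fold change of 0.85 ± 0.21 (SE, edgeR quasi-likelihood test, adjusted p = 0.020), with higher values in 3 of 3 mice. In siCebpa cells the log2 fold change was 0.43 ± 0.21 (adjusted p = 0.277), with mouse 2 below its siCon library. In the double knockdown it was 0.13 ± 0.21 (adjusted p = 0.734, 95% interval -0.33 to 0.58).

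The adjusted p of the Adh1 rise stayed under 0.05 in 16 of 20 alternative analyses. It was 0.00655 in edgeR with the mouse as a block. The refits that left out 1 library did not use the block. In these it was 0.0671 without the siHnf4a library of mouse 1 and 0.0652 without that of mouse 2. It was 0.0598 without the siCon library of mouse 2 and 0.0792 without that of mouse 3. The log2 fold changes were 0.75 to 0.97 over all single omissions. A small part of the Adh1 transcript words is shared with the antisense gene Gm16559, which had at most 11 counts in any library.

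Adh1 was lower in the double knockdown than in siHnf4a cells in 3 of 3 mice, and the ranges did not overlap, but the log2 difference of -0.72 ± 0.21 did not pass after adjustment (edgeR adjusted p = 1, and 0.310 with the mouse as a block). The interaction of the knockdowns on Adh1 was -1.15 ± 0.29 log2 units (95% interval -1.79 to -0.51). It had an adjusted p of 0.226, of 0.040 with the mouse as a block and of 0.0134 in DESeq2. Over its 19 alternatives the adjusted p lay between 0.0134 and 0.515, and 2 were past the threshold. The interaction was negative in 3 of 3 mice. The targets were not lowered equally, as Cebpa stood at 15.6% of siCon in siCebpa cells and at 48.9% in the double knockdown. Hnf4a stood at 23.6% in siHnf4a cells and at 15.7% in the double knockdown. The part of these differences in the interaction was not tested.

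Adh5 encodes the class III enzyme, which oxidises the glutathione adduct of formaldehyde. It had 119, 105 and 98.5 CPM in siHnf4a, 123, 97.8 and 107 CPM in siCebpa, 107, 98.7 and 102 CPM in the double knockdown, and 101, 80.0 and 85.3 CPM in siCon libraries. In each knockdown Adh5 was above the siCon library of the same mouse in 3 of 3 mice, although the groups overlapped. The log2 fold changes were 0.28 ± 0.11 in siHnf4a (adjusted p = 0.128), 0.30 ± 0.11 in siCebpa (adjusted p = 0.160) and 0.21 ± 0.11 in double knockdown cells (adjusted p = 0.249). With the mouse as a block the edgeR adjusted p values were 0.0101, 0.0134 and 0.0333 in the same order, all past the threshold.

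Adh4, the class II enzyme with activity on retinol and larger alcohols, was at 6.33 to 8.27 CPM in siHnf4a, 8.15 to 10.3 CPM in siCebpa, 5.93 to 7.05 CPM in double knockdown and 7.34 to 9.61 CPM in siCon libraries. The double knockdown libraries lay below all siCebpa and all siCon libraries. Against siCebpa the log2 difference was -0.52 ± 0.16 (edgeR adjusted p = 0.0496), lower in 3 of 3 mice. It passed in 3 of 20 alternatives, its adjusted p ranged from 0.0262 to 0.233, and it was lost without any 1 of the 12 libraries. Against siCon the log2 fold change was -0.39 ± 0.16 in the double knockdown (adjusted p = 0.122) and -0.19 ± 0.16 in siHnf4a cells (adjusted p = 0.454).

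**Figure D2:**
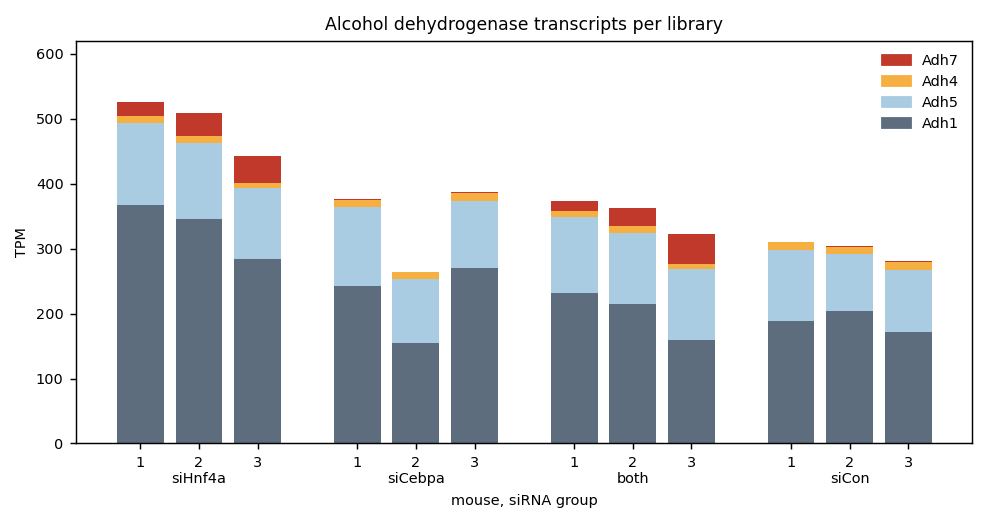
Levels (TPM) of Adh7, Adh4, Adh5 and Adh1 in each library, stacked by gene, for mice 1 to 3 of each siRNA group (both: double knockdown). Summed over the cluster, with Adh6b, whose share is too small to draw, the level is 443 to 526 TPM in siHnf4a libraries against 281 to 310 TPM in siCon, and Adh7 makes up 4.08% to 14.4% of it in siHnf4a and double knockdown libraries against at most 0.707% in the others.

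Over the whole cluster, Adh transcripts summed to 443 to 526 TPM in siHnf4a, 264 to 388 TPM in siCebpa, 322 to 374 TPM in double knockdown and 281 to 310 TPM in siCon libraries. Adh7 made up 4.08%, 6.91% and 9.41% of that sum in siHnf4a libraries of mice 1 to 3, 0.323% to 0.707% in siCebpa, 4.48%, 7.58% and 14.4% in the double knockdown, and 0.238% to 0.506% in siCon. Adh1 was the largest component in every library, at 64.1% to 69.9% of the sum in siHnf4a, 58.4% to 69.7% in siCebpa, 49.6% to 61.8% in the double knockdown and 60.7% to 67.0% in siCon. Adh6b, which was not tested for its low counts, had 0.036 to 0.269 TPM over the 12 libraries, at most 0.0867% of the sum. Adh6a had no counts in any library.

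Aldh1a1 encodes the main retinal dehydrogenase of adult liver, and Aldh1a7 a rodent relative whose coding sequence is 92.0% identical. Aldh1a1 had 799, 1622 and 1411 CPM in siHnf4a, 632, 1430 and 2888 CPM in siCebpa, 671, 1366 and 1268 CPM in the double knockdown, and 583, 1397 and 1686 CPM in siCon libraries of mice 1, 2 and 3. Mouse 1 was lowest in all 4 groups, and the groups overlapped. The mouse accounted for 81.2% of the variation of log2 CPM over the 12 libraries and the siRNA group for 5.00%. The log2 fold changes were 0.06 ± 0.53 in siHnf4a, 0.43 ± 0.53 in siCebpa and -0.15 ± 0.53 in double knockdown cells (adjusted p = 0.956, 0.712 and 0.886). The 95% intervals without the mouse as a block, -1.11 to 1.24, -0.74 to 1.61 and -1.32 to 1.03, all reach beyond 1 log2 unit upward. With the mouse as a block the intervals were -0.34 to 0.65, -0.14 to 0.85 and -0.56 to 0.43 in the same order.

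Aldh1a7 went the other way between mice. It was highest in mouse 1 and lowest in mouse 3 in siCebpa, double knockdown and siCon libraries, and in siHnf4a libraries mouse 2 was highest and mouse 3 lowest. It had 160, 187 and 123 CPM in siHnf4a, 194, 101 and 83.0 CPM in siCebpa, 142, 121 and 73.5 CPM in the double knockdown, and 149, 117 and 99.0 CPM in siCon libraries. The groups overlapped, and no knockdown passed the test against siCon (log2 fold changes 0.36, 0.05 and -0.12 in siHnf4a, siCebpa and double knockdown cells). The ratio of Aldh1a1 to Aldh1a7 in TPM was 3.28 to 5.04 in the 4 libraries of mouse 1, 8.74 to 14.3 in mouse 2 and 11.6 to 35.0 in mouse 3, and mice 1 and 2 did not overlap. Of the transcript words of Aldh1a7 86.2% occur in no other gene, and 281 are shared with Aldh1a1, and reads from these words cannot be assigned by sequence alone.

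**Figure D3:**
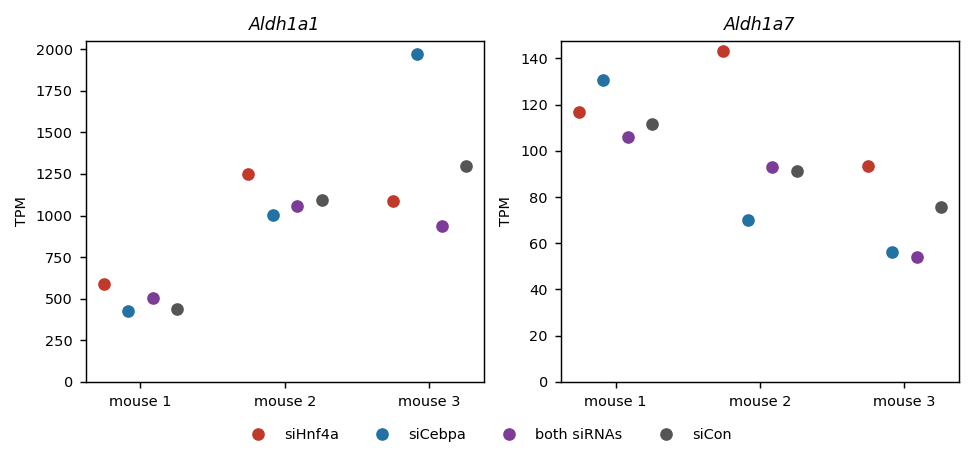
Levels (TPM) of Aldh1a1 and Aldh1a7 in each library, grouped by mouse and coloured by siRNA group, on axes that start at 0. Aldh1a1 is at 428 to 588 TPM in mouse 1 against 938 to 1973 TPM in mouse 3, while Aldh1a7 is at 106 to 130 TPM in mouse 1 against 54.1 to 93.5 TPM in mouse 3.

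Rdh10 encodes a membrane-bound dehydrogenase that makes retinal from retinol. It also followed the mouse, which accounted for 66.1% of its variation. It had 10.3 to 13.6 CPM in siHnf4a, 11.4 to 20.0 CPM in siCebpa, 11.7 to 13.7 CPM in double knockdown and 9.35 to 18.8 CPM in siCon libraries. All groups overlapped, with log2 fold changes over siCon of -0.18 ± 0.25 in siHnf4a, 0.19 ± 0.25 in siCebpa and -0.14 ± 0.25 in double knockdown cells, none past the threshold.

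Rbp4 encodes the plasma carrier of retinol. It had 302, 247 and 176 CPM in siHnf4a, 387, 231 and 261 CPM in siCebpa, 235, 165 and 175 CPM in the double knockdown, and 334, 324 and 315 CPM in siCon libraries of mice 1, 2 and 3. All siHnf4a and double knockdown libraries were below all siCon libraries, while the siCebpa libraries overlapped siCon. Rbp4 fell by 0.76 ± 0.23 on the log2 scale in the double knockdown (edgeR adjusted p = 0.047, lower in 3 of 3 mice), to 59.1% of siCon. In siHnf4a cells the log2 fold change was -0.43 ± 0.23 (adjusted p = 0.244), and with the mouse as a block -0.46 ± 0.14 (adjusted p = 0.0288). In siCebpa cells it was -0.15 ± 0.22 (adjusted p = 0.776).

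The call of Rbp4 in the double knockdown held in 11 of 20 alternatives, with an adjusted p of 0.00196 with the mouse as a block and 0.0508 with RLE size factors. It was lost without the double knockdown library of mouse 2 (adjusted p = 0.166) or of mouse 3 (0.145), without any 1 siCon library (0.0908 for mouse 1, 0.124 for mouse 2 and 0.102 for mouse 3), and without the siHnf4a library of mouse 2 (0.0765) or the siCebpa library of mouse 2 (0.0515) or mouse 3 (0.0541), and the log2 fold changes over single omissions were -0.94 to -0.66. Against siCebpa cells the double knockdown had a log2 difference of -0.61 ± 0.23 for Rbp4 (adjusted p = 0.102, and 0.00918 with the mouse as a block), lower in 3 of 3 mice.

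Cyp26a1 encodes the retinoic acid hydroxylase of liver and is itself induced by retinoic acid. It had 49.7, 42.3 and 36.9 CPM in siHnf4a, 23.7, 12.5 and 30.0 CPM in siCebpa, 24.9, 21.6 and 20.5 CPM in the double knockdown, and 16.9, 32.0 and 52.8 CPM in siCon libraries. The siCon libraries spanned 16.9 to 52.8 CPM and overlapped every other group. All siHnf4a libraries were above all siCebpa and all double knockdown libraries. The log2 fold changes over siCon were 0.34 ± 0.37 in siHnf4a (adjusted p = 0.589), -0.62 ± 0.37 in siCebpa (adjusted p = 0.393) and -0.60 ± 0.37 in double knockdown cells (adjusted p = 0.327). Between siHnf4a and siCebpa cells the log2 difference was 0.96 ± 0.37 (adjusted p = 0.107, and 0.044 with the mouse as a block), higher in 3 of 3 mice. Between the double knockdown and siHnf4a it was -0.94 ± 0.37 (adjusted p = 1, and 0.541 with the mouse as a block), lower in 3 of 3 mice.

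**Figure D4:**
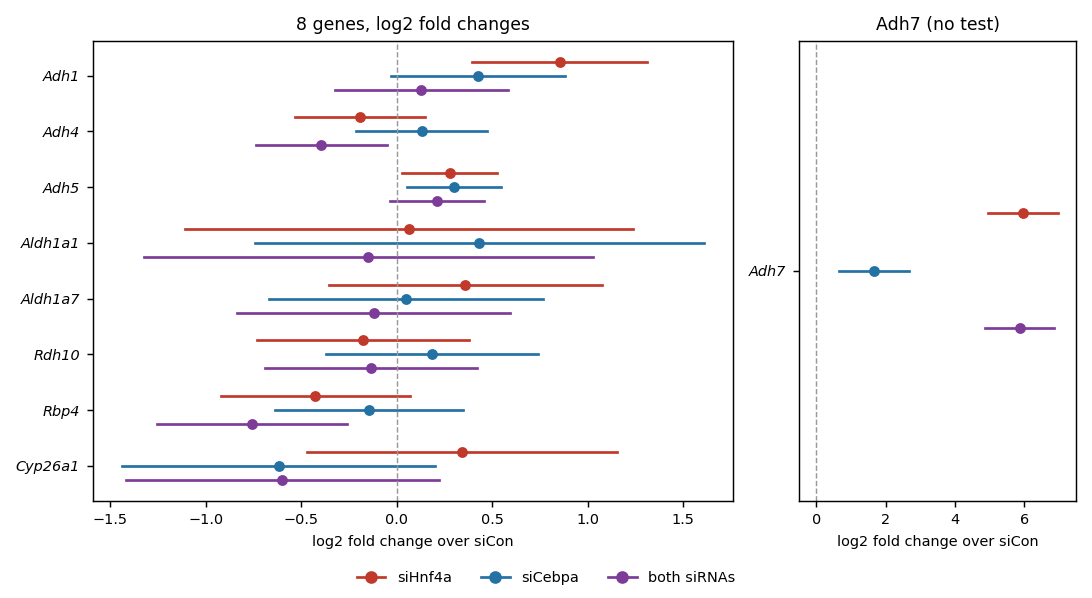
Log2 fold changes over siCon of the 8 genes taken for their function (left) and of Adh7 (right, on its own scale, with no test), with 95% intervals of the edgeR model, for siHnf4a, siCebpa and double knockdown cells (both siRNAs). Adh1 in siHnf4a cells, at 0.85, and Rbp4 in the double knockdown, at -0.76, are the values past the adjusted threshold.

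Counted over the 8 genes other than Adh7, 1 passed in siHnf4a cells against siCon (Adh1, higher), where 14.5% of all 15090 genes passed, 7.24% higher and 7.29% lower. In siCebpa cells 0 of 8 passed in edgeR and in DESeq2, and 1 had an unadjusted p under 0.05, where 4.67% of all genes passed, 2.94% higher and 1.72% lower. In the double knockdown 1 passed (Rbp4, lower), where 14.0% of all genes passed, 6.90% higher and 7.13% lower. With the mouse as a block, 3 passed in siHnf4a cells (Adh1 and Adh5 higher, Rbp4 lower), where 30.0% of all genes passed, 14.5% higher and 15.5% lower. With the block 1 passed in siCebpa cells (Adh5), where 16.8% of all genes passed, 8.73% higher and 8.11% lower, and 2 in the double knockdown (Adh5 higher, Rbp4 lower), where 29.5% passed, 13.8% higher and 15.6% lower. These shares of 8 genes are close to the background, so the counts are not a result about the genes as a group. Their median log2 fold change was 0.17 in siHnf4a, 0.16 in siCebpa and -0.14 in double knockdown cells, against 0.00017, 0.0013 and 0.00049 for all tested genes.

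Between knockdowns, 1 of the 8 passed in the double knockdown against siCebpa (Adh4, lower), where 13.0% of all genes passed, and 2 with the mouse as a block (Adh4 and Rbp4), where 27.3% passed. In siHnf4a against siCebpa 0 of 8 passed in edgeR, with 1 at an unadjusted p under 0.05, where 16.2% of all genes passed. Cyp26a1 passed there with the block, where 31.2% of all genes passed, and 1 of the 8 passed in DESeq2. In the double knockdown against siHnf4a 0 of 8 passed in edgeR, with or without the block, and in DESeq2, with 2 at an unadjusted p under 0.05, and 0.00663% of all genes passed with and without the block. For the interaction 0 of 8 passed in edgeR, with 2 at an unadjusted p under 0.05, where 0.0861% of all genes passed. Adh1 passed there in DESeq2, and also with the block, where 3.82% of all genes passed.

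The genes differed in the share of their spread that lay between siRNA groups. Such shares, for group or mouse, also arise without any effect, as means fitted to 12 libraries take up part of any spread. The shares were not tested, and Adh4 and Cyp26a1 passed in no knockdown against siCon. The siRNA group accounted for 65.5% of the variation of log2 CPM over 12 libraries in Adh1, 65.3% in Adh4, 57.6% in Rbp4, 51.8% in Adh5 and 46.6% in Cyp26a1. Adh7 stood at 97.4%, but it was taken for its rise across these same groups, so its share is only a description. The siRNA group accounted for 20.7% in Aldh1a7, 16.8% in Rdh10 and 5.00% in Aldh1a1, while the mouse accounted for 59.0%, 66.1% and 81.2% in these 3 genes. Adh7, Rbp4 and Aldh1a1 each had a window with both an AP-1 and a C/EBP match, and Rbp4 and Aldh1a1 also had a window with no match. Any link of these motifs to the shares was not tested. Pearson r between members is given as a description over the 12 libraries, which share mice and groups. The values largest in size were -0.76 for Adh7 and Rbp4, 0.73 for Adh4 and Rbp4, and -0.68 for Adh4 and Adh7. Next were -0.65 for Aldh1a1 and Rdh10, 0.63 for Adh1 and Adh5, and -0.62 for Aldh1a1 and Aldh1a7. The values of Adh7 carry the group differences for which it was taken.

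Among 12616 genes of at least 1 CPM, the patterns most like that of Adh7 by Pearson r of log2 CPM over the 12 libraries were Vps4a (0.992), D17Wsu92e (0.989) and Stk10 (0.984). Their log2 fold changes in siHnf4a cells were far smaller than that of Adh7, at 0.53, 0.88 and 1.27. Nearest to Rbp4 were Acsl1 (0.986) and Afm (0.967), and nearest to Adh5 were Naca (0.973), Eif3m (0.963) and Nsa2 (0.962). Adh1 was nearest to Ndufv2 (0.888), Bphl (0.875) and Etfb (0.873), and Adh4 to Tmco1 (0.928), Copb1 (0.887) and Acot4 (0.877). Aldh1a1 was nearest to Ifngr1 (0.951), Abhd2 (0.940) and Fgfbp1 (0.936), and Aldh1a7 to Plg (0.953), Abca8a (0.928) and Enho (0.926). Cyp26a1 was nearest to Lima1 (0.901), Lgalsl (0.870) and Uvssa (0.847), and Rdh10 to Atr (0.916), Ccnq (0.902) and Tor1a (0.894). For each member these are the highest values among 12616 genes, over 12 libraries that share mice and groups. Whether values this high arise by chance was not tested. The pattern of Adh7 is largely the rise for which it was taken.

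The wider pathway was read from 8 lists with 92 genes, of which 75 were tested beside Adh7. In siHnf4a cells 7 rose (9.33%, against 7.24% of all tested genes) and 9 fell (12%, against 7.29%). In siCebpa cells 2 rose (2.67%, against 2.94%) and 0 fell (against 1.72%). In the double knockdown 3 rose (4%, against 6.90%) and 9 fell (12%, against 7.13%). With the mouse as a block 17 rose and 13 fell in siHnf4a cells (22.7% and 17.3%, against 14.5% and 15.5%), 4 rose and 7 fell in siCebpa cells (5.33% and 9.33%, against 8.73% and 8.11%), and 10 rose and 16 fell in the double knockdown (13.3% and 21.3%, against 13.8% and 15.6%). The median log2 fold change of the 75 genes was 0.06 in siHnf4a, 0.05 in siCebpa and -0.14 in double knockdown cells. The lists below hold 5 to 15 tested genes each, so 1 gene is a large part of a list's count.

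Rdh7 and Dhrs4 fell in both groups that received the Hnf4a siRNA. Rdh7, a short-chain retinol dehydrogenase of mouse liver, had 7.36, 9.09 and 1.60 CPM in siHnf4a, 43.7, 37.8 and 48.2 CPM in siCebpa, 5.13, 3.33 and 0.387 CPM in the double knockdown, and 35.3, 45.3 and 27.1 CPM in siCon libraries. Every siHnf4a and double knockdown library was below every siCebpa and siCon library. Rdh7 fell by 2.58 ± 0.66 on the log2 scale in siHnf4a cells (edgeR adjusted p = 0.025) and fell by 3.60 ± 0.70 in the double knockdown (adjusted p = 0.0068). Rdh7 has close relatives among the mouse retinol dehydrogenases, and how shared reads were divided between them was not tested. Dhrs4, which reduces retinal, fell by 0.70 ± 0.11 and by 0.91 ± 0.11 (adjusted p = 0.0022 and 0.000483). Of the 13 tested genes of retinol and retinal interconversion, 3 fell and 0 rose in siHnf4a cells (the third, Rdh16, averaged under 1 CPM), 0 passed in siCebpa cells, and 2 fell and 0 rose in the double knockdown. Beside this, 7.29% of all genes fell in siHnf4a cells, 4.67% passed in siCebpa cells and 7.13% fell in the double knockdown. With the mouse as a block 2 rose and 3 fell in siHnf4a cells, 0 rose and 2 fell in siCebpa cells, and 2 rose and 3 fell in the double knockdown. The all-gene shares with the block were 14.5%, 8.73% and 13.8% higher and 15.5%, 8.11% and 15.6% lower in the same order. The genes gained with the block, named after their values were seen, were Rdh5 and Rdh14 (higher in siHnf4a and double knockdown cells), Rdh5 and Dhrs9 (lower in siCebpa cells) and Rdh16 (lower in the double knockdown).

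Among other genes of retinal oxidation the directions were mixed. Aox1, an aldehyde oxidase that can oxidise retinal, had 258, 259 and 267 CPM in siHnf4a, 145, 130 and 127 CPM in siCebpa, 242, 247 and 247 CPM in the double knockdown, and 105, 91.4 and 95.4 CPM in siCon libraries. No siCon library overlapped any knockdown group, and Aox1 rose in siHnf4a, siCebpa and double knockdown cells, by 1.42 ± 0.08, 0.46 ± 0.08 and 1.33 ± 0.08 on the log2 scale (edgeR adjusted p = 1.53e-05, 0.0122 and 2.01e-05). Its neighbour in the family, Aox3, rose by 1.16 ± 0.26 in siHnf4a cells (adjusted p = 0.0139). Aldh8a1, an aldehyde dehydrogenase active on 9-cis-retinal, fell by 1.54 ± 0.44 in siHnf4a cells (adjusted p = 0.0388) and fell by 2.08 ± 0.45 in the double knockdown (adjusted p = 0.0117). Of the 5 tested genes of this list 2 rose and 1 fell in siHnf4a cells, 1 rose and 0 fell in siCebpa cells, and 1 rose and 1 fell in the double knockdown. Among all genes 7.24%, 2.94% and 6.90% rose and 7.29%, 1.72% and 7.13% fell in the same order. With the block the counts of the list were 2 and 1, 1 and 1, and 2 and 1. The all-gene shares were then 14.5%, 8.73% and 13.8% higher and 15.5%, 8.11% and 15.6% lower.

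In the list of alcohol and aldehyde oxidation, 5 of 15 tested genes rose in siHnf4a cells, where 7.24% of all genes rose, 1 in siCebpa cells, where 2.94% rose, and 2 in the double knockdown, where 6.90% rose, and 0 fell. With the block 8, 3 and 4 rose in the same order, where 14.5%, 8.73% and 13.8% of all genes rose, and 1 fell in the double knockdown. Esd, the hydrolase that acts after ADH5 in formaldehyde removal, rose in all 3, with log2 fold changes of 1.02 ± 0.14 in siHnf4a, 0.97 ± 0.14 in siCebpa and 1.14 ± 0.14 in double knockdown cells (edgeR adjusted p = 0.00115, 0.00634 and 0.000574). Acss2, which activates acetate, the end product of ethanol oxidation, rose by 1.23 ± 0.14 in siHnf4a cells and by 1.21 ± 0.14 in the double knockdown (adjusted p = 0.000332 and 0.00035). Aldh1l1, a folate-dependent dehydrogenase, rose by 0.91 ± 0.19 in siHnf4a cells (adjusted p = 0.00959).

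Of the 9 tested carriers and uptake genes, Stra6l, a receptor for RBP4, fell by 0.55 ± 0.15 in siHnf4a cells (edgeR adjusted p = 0.0348), and both Stra6l, by 0.81 ± 0.15 (adjusted p = 0.00592), and Rbp4 fell in the double knockdown. Bco1, which cleaves β-carotene to retinal, fell by 1.03 ± 0.15 and by 1.17 ± 0.15 in siHnf4a and double knockdown cells (adjusted p = 0.00144 and 0.000668). It was 1 of 14 tested genes (7.14%) of retinyl ester and carotenoid metabolism in each. In siCebpa cells 0 passed in either list. Among all genes 7.29% and 7.13% fell in siHnf4a and double knockdown cells, and 4.67% passed in siCebpa cells, so the retinyl ester share is near the background. With the block 4 carriers and uptake genes fell and 1 rose in siHnf4a cells, 1 fell and 0 rose in siCebpa cells, and 5 fell and 1 rose in the double knockdown. In the retinyl ester list 2 rose in siHnf4a cells with the block beside the fall of 1 gene. The all-gene shares with the block were 15.5%, 8.11% and 15.6% lower and 14.5%, 8.73% and 13.8% higher in siHnf4a, siCebpa and double knockdown cells. Of the 12 tested receptors and cofactors 3 fell and 0 rose in siHnf4a cells and in the double knockdown, where 7.29% and 7.13% of all genes fell. In siCebpa cells 0 passed, where 4.67% of all genes passed. With the block 4 fell and 2 rose in siHnf4a cells, 3 fell and 0 rose in siCebpa cells, and 4 fell and 1 rose in the double knockdown, where 15.5%, 8.11% and 15.6% of all genes fell. Rarg, the gene of RARγ, fell by 1.40 ± 0.23 and fell by 1.46 ± 0.23 (adjusted p = 0.00277 and 0.00211). Rara, the gene of RARα, fell by 0.71 ± 0.18 and by 0.65 ± 0.18 (adjusted p = 0.0259 and 0.0381), and Nrip1, a corepressor, by 0.38 ± 0.10 and by 0.46 ± 0.10 (adjusted p = 0.0317 and 0.0138).

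None of the 5 tested genes of retinoic acid breakdown and none of the 8 tested retinoic acid inducible genes passed in edgeR without the block in any knockdown against siCon. Among all genes 14.5%, 4.67% and 14.0% passed in siHnf4a, siCebpa and double knockdown cells. With the block, 1 breakdown gene, Cyp2c39, named after its values were seen, fell in the double knockdown. Of the inducible genes 1 fell with the block in siHnf4a cells, 0 passed in siCebpa cells and 1 fell in the double knockdown. The all-gene shares with the block were 15.5% lower in siHnf4a cells, 16.8% passing in siCebpa cells and 15.6% lower in the double knockdown. Cyp2c39, a cytochrome P450, had 6.05, 1.86 and 0.172 CPM in the double knockdown and 41.02, 25.8 and 6.16 CPM in siCon libraries of mice 1, 2 and 3, with a log2 fold change of -3.16 ± 1.5 (edgeR adjusted p = 0.197, and 0.00231 with the block). How reads shared with its close Cyp2c relatives were divided was not tested. Of the inducible genes, 1, 0 and 1 had an unadjusted p under 0.05 in siHnf4a, siCebpa and double knockdown cells, and 0, 0 and 1 passed in DESeq2. None of the breakdown genes had an unadjusted p under 0.05 in edgeR without the block or passed in DESeq2. Tgm2, a transglutaminase induced by retinoic acid and the most abundant of the inducible genes, had 4534, 3035 and 2850 CPM in siHnf4a, 3596, 1542 and 1139 CPM in siCebpa, 3364, 2263 and 2818 CPM in the double knockdown, and 2920, 2311 and 2185 CPM in siCon libraries. All siRNA groups overlapped siCon.

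**Figure D5:**
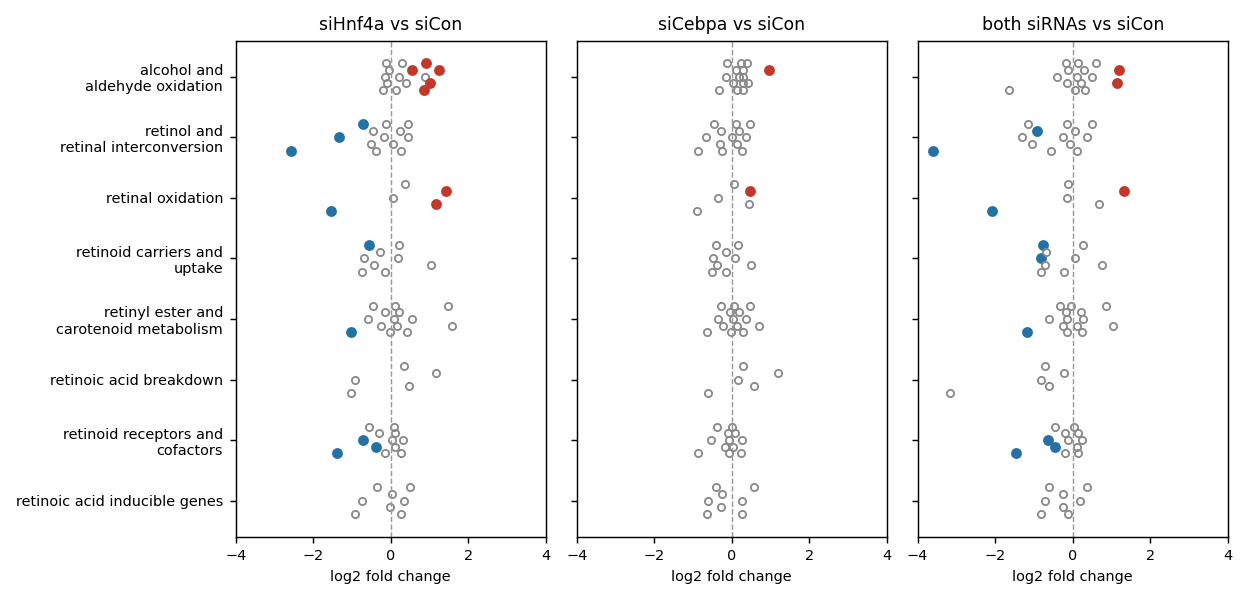
Log2 fold changes over siCon of the tested genes of 8 pathway lists (rows) in siHnf4a, siCebpa and double knockdown cells (both siRNAs), without Adh7. Filled points passed the edgeR test without the mouse as a block (red higher, blue lower) and open points did not: 7 higher and 9 lower in siHnf4a cells, 2 higher in siCebpa cells, and 3 higher and 9 lower in the double knockdown.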

How the data were processed

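RNA of 12 libraries (4 siRNA groups, 3 mice) was sequenced on a BGISEQ-500 instrument, per the labels. The authors deposited estimated counts per gene (expected counts, partly fractional, not normalised) and TPM, made with Trim Galore 0.6.4 and kallisto 0.4.6 on GRCm38.p6, per the submitters' processing notes. The sources used here name no counting annotation or strand setting.

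Counts were rounded and tested in edgeR 4.0.16 (R 4.3.3): filterByExpr over the 4 groups (at least 0.42 CPM), TMM scaling, 1 mean per group over all 12 libraries, 8 residual degrees of freedom, two-sided quasi-likelihood contrasts, Benjamini-Hochberg adjustment over 15090 genes, threshold 0.05. "Rose", "fell" and "passed" refer to this threshold. Values after ± are standard errors. CPM uses the scaled library sizes, and TPM serves for levels between genes. The interaction is the change in the double knockdown less the summed changes of both single knockdowns.

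The design text ties replicate numbers to mice. The labels name no cell preparation or culture run apart from that number, so these cannot be told apart from the animal. Deviations from the group means were compared in 18 same-mouse pairs, where Pearson r was 0.17 to 0.80, and each of the 12 libraries was closest to another of its own mouse. Blocked fits (6 degrees of freedom) are therefore given where they change a call. Replicates differed by more than counting error (chi-square per degree of freedom at least 18.0).

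Members, lists and tests were chosen with earlier results of these data known. All members are named, and per list and knockdown up to 3 genes past the threshold with the largest change and a mean of at least 1 CPM, or the most abundant where none passed; not all of the latter are printed. For each member the genes of highest Pearson r are named, up to 3. Some genes that these rules would name are not reported here. Alternatives were RLE size factors, DESeq2 1.42.0, 2 other count filters, the block, only the compared groups, limma-trend (limma 3.58.1) on log2 TPM with pseudocounts of 1 and 0.1, and omission of each library. The test of siHnf4a against siCon was checked on simulated counts with planted changes. These counts held no mouse effect, so the check does not cover the pairing by animal.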

Additional observations from a re-analysis of the deposited data

How the results depend on the processing

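Under the 20 alternatives per result (19 for the interaction), the number of the 8 genes past the threshold moved as follows. With the mouse as a replicate block, the pairing by animal, it was 3 in siHnf4a against siCon, 1 in siCebpa against siCon, 2 in the double knockdown against siCon, 2 in the double knockdown against siCebpa, and 1 each in siHnf4a against siCebpa and in the interaction; the block removed no call on a member. DESeq2 gave 1 in siHnf4a against siCebpa and 1 in the interaction. In the double knockdown, RLE size factors gave 0 against siCon and 0 against siCebpa. Against siCebpa, no filter on low counts, only the compared groups and both TPM settings also gave 0. Omitting 1 library at a time gave 0 to 1 in siHnf4a against siCon, in the double knockdown against siCon and in siHnf4a against siCebpa, and 0 in every refit of the double knockdown against siCebpa.

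Signs turned only for values that were past the threshold in no setting. Over the single omissions, the log2 fold change of Aldh1a1 lay between -0.27 and 0.37 in siHnf4a, -0.24 and 0.82 in siCebpa and -0.49 and 0.15 in double knockdown cells. That of Rdh10 lay between -0.40 and 0.086, -0.037 and 0.45, and -0.36 and 0.13, and that of Aldh1a7 between -0.41 and 0.28 in siCebpa and -0.33 and 0.11 in double knockdown cells. In siCebpa cells Aldh1a7 was at -0.0092 with the replicate block, and at -0.19 on log2(TPM + 1) and -0.19 on log2(TPM + 0.1), where Adh4 was at -0.12 and -0.13. The median of all genes in that comparison was -0.12 and -0.14 on these TPM scales. Adh7 on the same scales was at 3.99 and 4.80 in siHnf4a, 0.32 and 0.52 in siCebpa and 3.81 and 4.61 in double knockdown cells. The causes were not tested. With 3 mice per group and 20 to 25 Adh7 counts per siCon library, the size of its fold change is imprecise. The spread of Aldh1a1, Aldh1a7 and Rdh10 between mice leaves wide intervals in the fit without the block, and narrower ones with it.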
